A study of Mus musculus with 6 samples.

Results

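The genes described here are 10 developmental transcription factors, Pax3, Pax9, Irx3, Irx5, Foxc1, Foxc2, Dmrt2, Tbx5, Nr2f1 and Nr2f2, out of 21938 protein-coding genes counted. They were chosen by name as factors whose loci differ in accessibility among basal cells of the mouse olfactory epithelium, with the values in these cells already known, so their levels across cells are given as a description. The study profiled open chromatin in single nuclei (10x Genomics single-cell ATAC-seq) of horizontal basal cells before and 24 h after injury, with 3 biological replicates in each of 2 groups. All animals carried a Krt5 promoter-driven, inducible Cre and a Rosa26 reporter that makes YFP after recombination (genotype Krt5CreER; Rosa26 LSL-YFP/LSL-YFP), so a cell is marked if it, or a cell it came from, expressed Krt5 when Cre was induced. Cells of the dorsal epithelium that were positive for YFP and negative for the dead-cell dye propidium iodide were sorted. The uninjured libraries, called U1, U2 and U3, came from control animals of 8, 6 and 6 to 7 weeks. The injured libraries, called I1, I2 and I3, came from animals of the same ages collected 24 h after an intraperitoneal injection of methimazole, a drug that destroys most of this epithelium and spares the horizontal basal cells.

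Horizontal basal cells are reserve stem cells that lie on the basal lamina, divide rarely in the intact epithelium, and become active after injury. The olfactory epithelium is patterned along its dorsal to ventral axis, and the neighbouring respiratory epithelium is also built on Krt5-positive basal cells. The factors described here are known for giving cells a place in the embryo. Pax3 and Pax9 are paired-box proteins of the neural crest and muscle lineage and of the pharynx, palate and teeth. Irx3 and Irx5 are Iroquois homeodomain proteins that pattern many organs. Foxc1 and Foxc2 are forkhead proteins of mesenchyme, eye and vessels, and Dmrt2 is a DM-domain protein of the somites. Tbx5 is the T-box protein of the forelimb and heart, and Nr2f1 and Nr2f2 are the orphan nuclear receptors COUP-TFI and COUP-TFII of the brain, the sense organs and the veins. Open chromatin at a locus was measured here, not its RNA or protein.

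The measurement is the number of Tn5 cut sites, the ends of the sequenced fragments, that fall in a window. The first window was the gene body plus 2 kb upstream, and the second was 1 kb to either side of each annotated start. Levels are given as CPM, the cut sites in a window scaled to 1000000 cut sites of the same cells, and per kb of window where genes are compared with each other. The 4476 barcodes with at least 2000 fragments were kept as cells, 420 to 1338 a library, with 14825320 to 44875242 cut sites a library and median depths of 8710 to 21702 fragments a cell. Libraries U3 and I3 shared 34 barcodes, and in all 34 most fragments of the smaller one were identical in both libraries. In I2 a single barcode held 14.7% of the cut sites. In all, 10 clusters of cells were made from all open regions. Clusters 1, 6, 7, 9 and 10 carried the horizontal basal cell (HBC) markers, with 8 or 9 of 9 markers above the mean of the clusters in clusters 1, 6, 7 and 9, and were called HBC-like. Cluster 2 had 6 of 9 HBC markers above the mean and 2 of 4 secretory airway markers, Reg3g among its leading genes, and was left unnamed. Clusters 4 and 5 carried markers of sustentacular cells and olfactory sensory neurons. The HBC-like clusters held 3199 of the 4476 cells: 341 of 454 in U1, 591 of 889 in U2 and 327 of 629 in U3. In I1 to I3 they held 1230 of 1338, 323 of 420 and 387 of 746. Levels given by library cover all its cells.

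Cluster 9 came almost wholly from 1 library. It held 185 cells, of which 167 came from U3, 26.6% of that library, while U1 and I2 had 0, U2 had 6, I1 had 5 and I3 had 7, of which 6 were copies of barcodes in U3. It carried 9 of 9 HBC markers above the mean, with Krt5 at 53.6 CPM, Krt14 at 60.3 and Krt15 at 27.1, against 93.6, 99.2 and 15.1 in cluster 1. Of the genes of the dorsal zone, Nqo1 was at 34.2 CPM in cluster 9, 60.4 in cluster 2 and 100.1 in cluster 1, and Acsm4 lay the other way at a low level, 5.63, 6.00 and 3.90 CPM. The nuclear factor I gene Nfix was at 226.7, 219.4 and 182.7 CPM in the same order, and its relatives Nfia and Nfib were nearly level, at 249.3, 244.4 and 244.8 CPM and at 419, 421 and 412 CPM. Irx3, Foxc2 and Pax9 were among the 10 genes with the largest fold in cluster 9, and these genes helped to form it. When the cells were grouped again using only chromosomes that carry none of the 10 genes, 176 of the 185 cells fell into 1 group of 180 cells, 165 of them from U3. Whether this group reflects where the tissue of U3 was cut, the animal or the library cannot be told apart with 1 library.

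Per kb, Foxc1 was the most accessible of the 10 loci, at a mean over the 6 libraries of 4.57 CPM per kb of gene body and upstream sequence. Irx3 followed at 3.41, Nr2f2 at 2.81, Irx5 at 2.34, Foxc2 at 2.30, Dmrt2 at 1.71, Pax9 at 1.37, Nr2f1 at 0.931, Pax3 at 0.388 and Tbx5 at 0.181 CPM per kb. The low values of Pax3 and Tbx5 cover long windows, 97.9 and 54.6 kb, most of which is intron, against 4.73 kb for Foxc2.

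Pax3 (chromosome 1, 78101267 to 78197134, minus strand, GRCm38) had gene-body levels of 24.9, 24.4 and 87.4 CPM in U1, U2 and U3, and of 29.6, 27.5 and 34.3 CPM in I1, I2 and I3. U3 stood 3.55 times above the mean of U1 and U2, and the other 5 libraries lay close together. Pax9 (chromosome 12, 56691767 to 56712822, plus strand) had 23.6, 18.6 and 47.9 CPM in the uninjured and 31.8, 34.8 and 32.8 CPM in the injured libraries. U3 was again the highest, at 2.27 times the mean of U1 and U2, and every injured library lay above U1 and U2. Around the first annotated start of Pax9 the levels were 1.96, 2.01 and 11.1 CPM in U1 to U3 and 2.32, 3.17 and 3.67 CPM in I1 to I3. Around its other start, which lies downstream, they were 11.6, 9.45 and 22.2 CPM against 21.04, 21.8 and 18.3 CPM. U3 thus stood 5.59 times above the other uninjured libraries at the first start and 2.11 times at the other.

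Irx3 and Irx5 are neighbours on chromosome 8, at 91798525 to 91802067 on the minus strand and 92357625 to 92376286 on the plus strand. Irx3 had 13.2, 13.7 and 29.5 CPM in U1 to U3 and 19.4, 21.4 and 16.2 CPM in I1 to I3. Irx5 had 40.4, 48.2 and 77.1 CPM in the uninjured and 37.8, 43.9 and 42.5 CPM in the injured libraries. For both genes U3 was the highest library, 2.20 and 1.74 times the mean of U1 and U2, and the groups overlapped.

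Foxc2 (chromosome 8, 121116171 to 121118895, plus strand) had 8.03, 8.23 and 20.8 CPM before injury and 7.40, 8.57 and 12.1 CPM after it. Dmrt2 (chromosome 19, 25672411 to 25678991, plus strand) had 11.6, 9.60 and 30.9 CPM before and 9.18, 9.37 and 17.4 CPM after. In both genes the replicate 3 libraries, U3 and I3, were the highest of their group, over all cells of a library. Within clusters 6 and 7, Dmrt2 was lowest in I3, at 11.4 and 5.86 CPM, against 11.8 and 6.36 in I1 and 20.8 and 7.75 in I2. Foxc2 was highest in I3 in cluster 6, at 19.3 CPM against 13.2 in I1 and 17.0 in I2. In cluster 7 it was at 7.37 CPM in I3, against 6.66 in I1 and 10.3 in I2. Foxc1 (chromosome 13, 31806633 to 31812476, plus strand), the close relative of Foxc2, had 38.6, 41.5 and 36.8 CPM before injury and 31.1, 34.1 and 33.3 CPM after it. U3 was the lowest uninjured library for Foxc1, the only one of the 10 genes for which U3 was not the highest of all libraries.

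Nr2f1 (chromosome 13, 78188973 to 78199757, minus strand) had 9.98, 11.4 and 14.2 CPM before injury and 11.1, 14.1 and 10.7 CPM after it. Nr2f2 (chromosome 7, 70351944 to 70366735, minus strand) had 49.6, 43.8 and 61.2 CPM before and 42.2, 41.2 and 44.8 CPM after. Both varied less among the uninjured libraries than the Pax and Irx genes, with U3 at 1.32 and 1.31 times the mean of U1 and U2. Among the injured libraries the standard deviation of Nr2f1 was 15.4% of its mean and that of Nr2f2 4.30%. It was 11.4% for Pax3, 4.52% for Pax9, 13.6% for Irx3 and 7.75% for Irx5. These percentages include the barcode with 14.7% of the cut sites of I2. With copied barcodes and those under 20% in open regions left out, Pax9 was at 33.3, 41.3 and 33.0 CPM in I1 to I3. Irx3 was then at 20.8, 24.2 and 16.4 CPM and Nr2f1 at 10.9, 13.3 and 10.8 CPM. The order of the genes by this spread therefore depends on the barcodes kept. The first start of Nr2f2 was an exception, at 0.877, 0.731 and 2.69 CPM in U1 to U3, while its other starts differed little.

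Tbx5 (chromosome 5, 119832668 to 119885219, plus strand) had 10.3, 8.08 and 15.2 CPM before injury and 10.1, 9.84 and 5.94 CPM after it. Some of these levels rest on single barcodes. In U3 a single barcode, in cluster 1, held 298 of the 481 cut sites, and without it the level was 5.80 CPM. In U1 a single barcode held 82 of 152, and without it the level was 4.75 CPM. In I2 the barcode with the largest fragment count held 85 of 233, and in U2 the highest barcode held 64 of 265. In I1 and I3 it held 44 of 451 and 6 of 212. Without the highest barcode of each library, U3 lay below U2 (6.13 CPM), I1 (9.19 CPM) and I2 (7.33 CPM), so its place as the highest library for Tbx5 rests on that barcode. For the other 9 genes the highest barcode held at most 18.6% of a library's cut sites, and only for Tbx5 are the cluster levels left to the plots and not read. A barcode can still hold a larger share of a cluster than of a library.

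**Figure D1:**
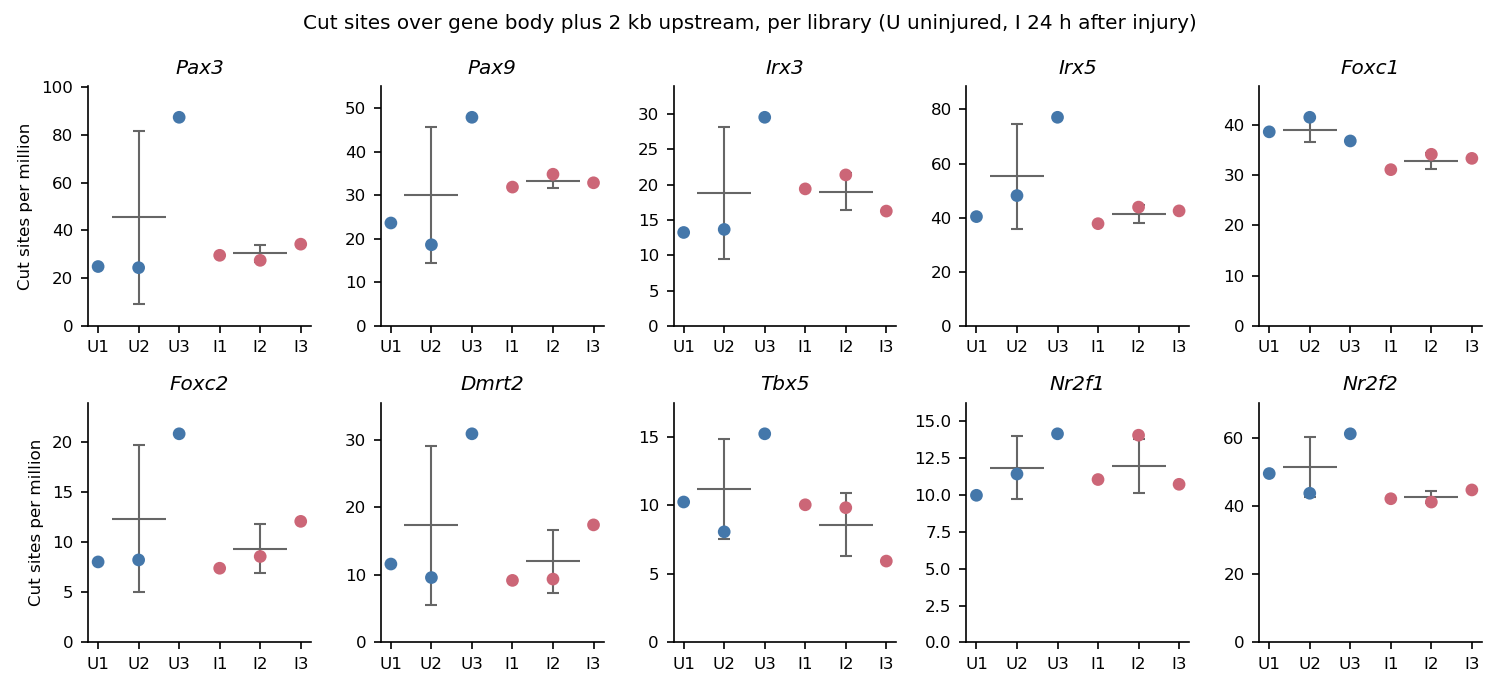
Cut-site level (CPM) over the gene body plus 2 kb upstream, for each of the 10 genes in the 6 libraries, with the mean of each group. U3 is the highest library for 9 of the 10 genes, for Tbx5 only through 1 barcode, while the injured libraries lie close together for most of them.

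The fitted spread put these values on a common scale. The biological coefficient of variation between libraries, fitted by edgeR, had a median of 0.128 over 20330 gene bodies, and 8 of the 10 genes lay above it, from 0.173 for Nr2f1 to 0.356 for Pax3, with Foxc1 at 0.097 and Nr2f2 at 0.113 below. U3 was the highest of the 6 libraries at 9 of the 10 genes, Tbx5 with its single barcode included, and at 19.7% of all gene bodies. It exceeded the mean of U1 and U2 by more than 2-fold at 5 of the 10 genes and at 2.46% of all gene bodies, and the median ratio was 1.97 over the 10 genes and 1.01 over all. At the starts, 12 of the 18 windows passed 2-fold, against 5.50% of 26451. Since the genes were picked as variable, these counts describe the choice and support nothing about it.

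Within U3 the levels differed by cluster, and 3 groups of genes had 3 patterns. Pax9 was at 20.3 CPM in cluster 1 (95% exact Poisson interval 16.4 to 24.8, counting error only), 27.2 in cluster 2 (23.9 to 30.9) and 97.6 in cluster 9 (91.7 to 104). Irx3 was at 10.2, 18.0 and 63.6 CPM and Irx5 at 42.9, 44.4 and 142 CPM in the same order. For these 3 genes cluster 9 stood above both other groups by more than the counting intervals. The intervals take the 2 ends of a fragment as independent counts, so they are too narrow. Pax3 was at 16.2 CPM in cluster 1 (12.8 to 20.3), 116 in cluster 2 (109 to 123) and 133 in cluster 9 (126 to 140). Foxc2 was at 5.55, 21.9 and 35.4 CPM, and Dmrt2 at 2.13, 30.3 and 48.5 CPM. These 3 genes were high in both cluster 2 and cluster 9. Foxc1 was at 51.6, 33.8 and 48.1 CPM, Nr2f1 at 11.5, 17.2 and 12.3 CPM and Nr2f2 at 71.1, 57.7 and 74.6 CPM. This last group was not higher in cluster 9 than in cluster 1 by more than their counting intervals.

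Cluster 9 held 32.6% of the cut sites of U3 and 70.3% of its sites at Irx3, 66.5% at Pax9, 59.8% at Irx5, 55.4% at Foxc2, 51.2% at Dmrt2 and 49.6% at Pax3. Without cluster 9, U3 was at 13.01 CPM for Irx3, 23.8 for Pax9 and 46.0 for Irx5, which lies within or next to the values of U1 and U2. It was still at 65.4 CPM for Pax3, 22.4 for Dmrt2 and 13.8 for Foxc2, above both other uninjured libraries. Over all libraries, the level in cluster 9 divided by that in cluster 1 was 7.01 for Pax3, 6.50 for Dmrt2, 5.96 for Foxc2, 5.13 for Pax9, 4.46 for Irx3 and 3.42 for Irx5. It was 1.38 for Nr2f2, 1.04 for Nr2f1 and 1.01 for Foxc1. For 18417 genes compared in the same way the median ratio was 0.976, and 5.35% had a ratio of at least 2. High levels of Pax3 and Dmrt2 were not limited to these clusters. Dmrt2 was at 26.2 CPM in the neuron-like cluster 5 and 18.1 in cluster 3, against 22.8 in cluster 2 and 13.2 in cluster 6. Pax3 was at 46.6 CPM in cluster 3 and 54.0 in cluster 8, against 45.7 in cluster 6. The highest Pax3 barcodes of I2 and I3, with 94 and 86 cut sites there, both lay in cluster 3. Only 14.5% and 13.5% of their cut sites fell in open regions.

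**Figure D2:**
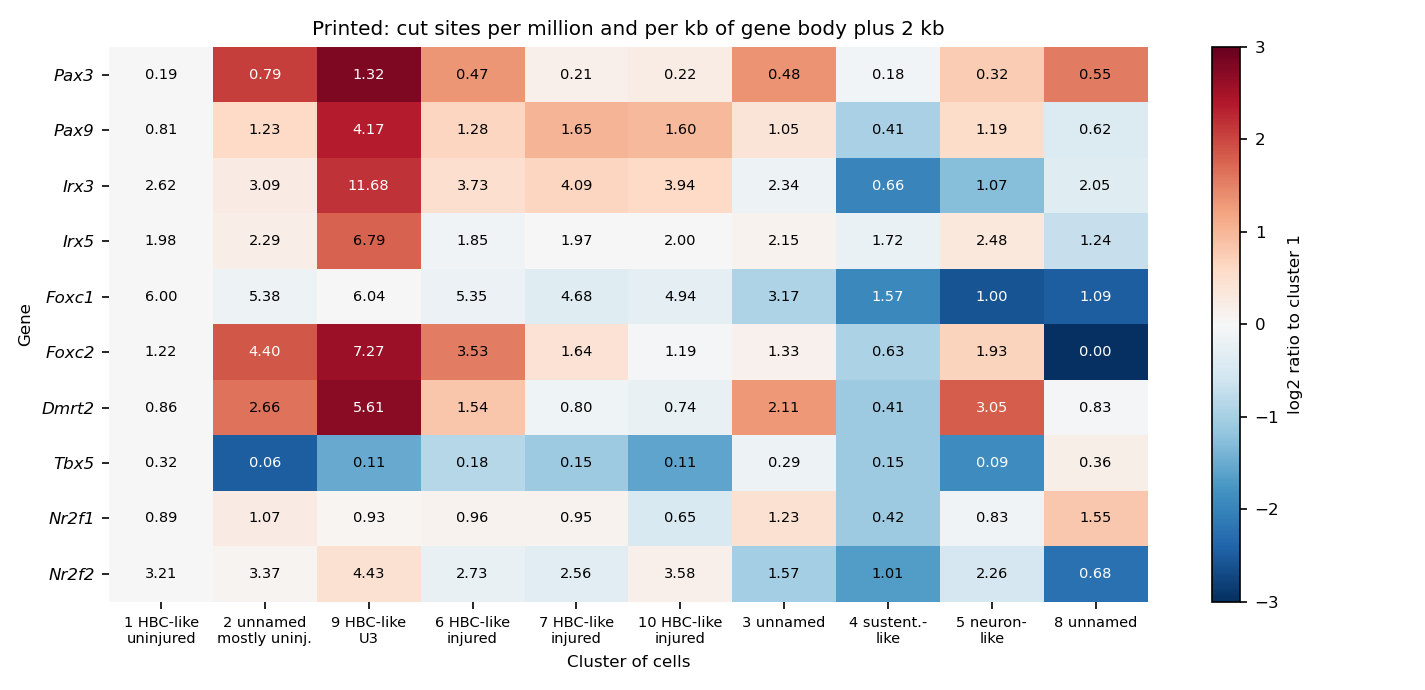
Cut-site level in CPM per kb of window (printed numbers) of the 10 genes in each of the 10 clusters, all libraries pooled, coloured by the log2 ratio to cluster 1. Cluster 9, nearly all from U3, is the darkest column for Pax3, Pax9, Irx3, Irx5, Foxc2 and Dmrt2, and Pax3, Foxc2 and Dmrt2 are also above cluster 1 in clusters 2 and 6, though Dmrt2 is as high in cluster 5 and Pax3 in clusters 3 and 8.

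Pax3, Foxc2 and Dmrt2 differed between the 2 cell groups compared in every library, before and after injury. To take the members out of the grouping, the cells grouped on chromosomes without any of the 10 genes were used, comparing the 2 main groups of each condition. In the uninjured libraries these were the groups that match cluster 2 and cluster 1, and in the injured libraries those that match cluster 6 and clusters 7 with 10. Cluster 2 is unnamed, with Krt5 at 47.7 CPM against 93.6 in cluster 1 and Krt14 at 56.6 against 99.2, so the uninjured contrast is not one between groups that are both known to be basal. Krt5 was also lower in the first injured group, at 56.1 CPM in cluster 6 against 92.0 in cluster 7 and 114.8 in cluster 10. Other HBC markers differed in direction. Krt14 was at 75.9 CPM in cluster 6 against 69.3 in cluster 7, Icam1 at 91.6 against 46.0 and Itga6 at 211 against 147. Krt15 (11.4 against 11.2) and Itgb4 (53.0 against 51.2) were nearly level. Col17a1 (41.7 against 55.7) and Egfr (226 against 240) were lower in cluster 6. Pax3 was at 27.0 against 17.5 CPM in U1, 47.5 against 18.1 in U2 and 116 against 22.1 in U3, and at 57.6 against 19.2 in I1, 46.5 against 22.7 in I2 and 35.1 against 21.8 in I3. It was higher in the first group in 6 of 6 libraries, by 1.54 to 5.23 times.

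Foxc2 was at 26.2 against 4.27 CPM in U1, 22.6 against 6.43 in U2 and 22.4 against 5.34 in U3, and at 14.2 against 6.53 in I1, 16.4 against 8.93 in I2 and 18.2 against 7.42 in I3. The ratio ran from 1.83 to 6.13, with the first group higher in 6 of 6 libraries. Dmrt2 was at 18.3 against 7.01 CPM in U1, 15.1 against 7.35 in U2 and 31.0 against 3.43 in U3, and at 13.1 against 6.46, 22.1 against 8.10 and 12.3 against 6.20 in I1 to I3. Its ratio ran from 1.98 to 9.03, again in 6 of 6 libraries. Of 15980 genes with a mean of at least 5 CPM, 10.99% were higher in the first group in all 6 libraries and 0.657% were so by more than 1.5-fold in each. Pax3, Foxc2 and Dmrt2 passed that fold in all 6. The genes were picked as variable among these cells, so their place beside all genes describes the choice and supports nothing about it.

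The other genes did not separate these groups in the same way. Irx5 was higher in the first group in 6 of 6 libraries, but only by 1.01 to 1.48 times. Pax9, Foxc1 and Nr2f1 were higher in 4 of 6 libraries, Irx3 in 3 and Nr2f2 in 2. With clusters made from all regions, the ratios for Pax3, Foxc2 and Dmrt2 were 1.66 to 7.16, 1.65 to 5.07 and 1.84 to 14.2, each in 6 of 6 libraries. Secretory airway markers differed between these groups in part: 2 of 4 were above the mean in clusters 2 and 6. Their median log2 ratios were 0.77 and 0.41 there, against -1.13 in cluster 1 and -0.75 in cluster 7. In cluster 9, where Pax3, Foxc2 and Dmrt2 were highest, 2 of 4 were above the mean and the median was -0.37. The part of these markers in the result was not tested.

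**Figure D3:**
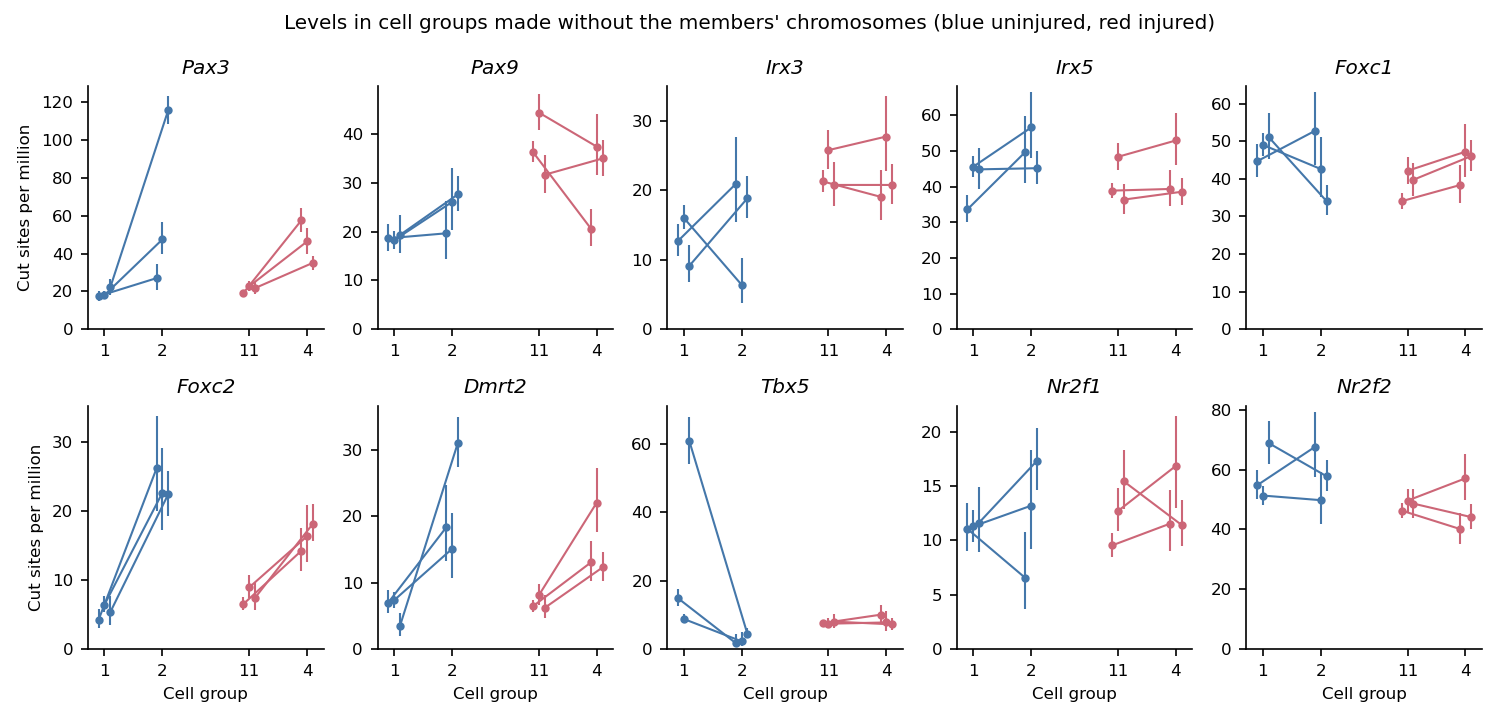
Cut-site level (CPM) of each gene, by library, in the 2 main cell groups of each condition. The groups were made on chromosomes that carry none of the 10 genes, and lines join the groups of 1 library. In U3 a group of 165 cells, left out here, was larger than the 2 compared, of 151 and 164 cells. The lines rise in all 6 libraries for Pax3, Foxc2 and Dmrt2 by at least 1.54 times, and for Irx5 by at most 1.48 times, while the other genes have no direction held in all 6.

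The open region with the widest ratio of cluster 2 to cluster 1 at these loci, among those with a mean of at least 5 CPM, lies in an intron of Pax3, 53384 bases into the gene from its start, at chr1:78142501-78145000. It was at 3.24, 2.53 and 20.4 CPM in U1 to U3 and 3.77, 2.66 and 5.38 CPM in I1 to I3. By cluster it was at 27.7 CPM in cluster 2, 25.6 in cluster 9 and 12.2 in cluster 6, and at 1.03, 1.33 and 1.21 CPM in clusters 1, 7 and 10, libraries pooled. Library by library, cluster 2 against cluster 1 was at 13.9 against 1.53 CPM in U1, 18.6 against 0.625 in U2 and 41.1 against 2.13 in U3, on 10 to 14 cut sites in cluster 1. Cluster 6 against cluster 7 was at 16.1 against 1.04 CPM in I1, 9.73 against 1.57 in I2 and 10.3 against 1.65 in I3. U3 had the highest level in cluster 2, and the first cluster was the higher in all 6 libraries. The region was picked for this ratio, and the clusters were made from all open regions, this one included. Its direction in the libraries therefore describes the choice and supports nothing about it. Only U3 and I3 were above the 5 CPM asked of the mean, so the region passed that filter largely through U3. The region at the Pax3 start, chr1:78194501-78199500, differed less between the same groups, at 15.02 CPM in cluster 2, 8.23 in cluster 6 and 36.7 in cluster 9 against 6.18 in cluster 1 and 6.00 in cluster 7. The 300 bases of the intron region with the most cut sites are printed because that ratio is widest there. No match to any of 6 motifs searched on both strands was found in them: AP-1 (TGANTCA), forkhead (TGTTTAC), T-box (AGGTGTGA), nuclear receptor half-site (AGGTCA), paired domain (GTCACGC) and RUNX (TGTGGT). The letters are from the GRCm38 genome, plus strand, chr1:78143301-78143600.
Pax3 intron region: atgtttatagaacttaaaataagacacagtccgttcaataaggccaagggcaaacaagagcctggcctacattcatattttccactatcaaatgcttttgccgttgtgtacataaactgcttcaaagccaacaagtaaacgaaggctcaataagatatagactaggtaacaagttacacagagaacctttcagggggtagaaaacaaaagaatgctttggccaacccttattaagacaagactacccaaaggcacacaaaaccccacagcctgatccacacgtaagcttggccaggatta

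At Dmrt2 and Foxc2 the same clusters differed at the starts. The region over the Dmrt2 start, chr19:25669001-25675500, was at 7.35 CPM in cluster 1, 23.4 in cluster 2 and 47.0 in cluster 9, and at 14.7 in cluster 6 against 6.73 in cluster 7. The region over the single exon of Foxc2, chr8:121115501-121119000, was at 5.40, 20.6 and 31.5 CPM in clusters 1, 2 and 9, and at 16.6 against 7.40 in clusters 6 and 7. At the Dmrt2 start an antisense long noncoding RNA gene, 2610016A17Rik, overlaps the promoter, and cut sites carry no strand, so the genes cannot be told apart there. The promoter of Dmrt2 (RefSeq, GRCm38, plus strand, chr19:25672161-25672410) is printed as a start at which clusters 1 and 2 differ, with CG pairs in capitals. It holds 14 CG pairs and no match to any of the 6 motifs.
Dmrt2 promoter: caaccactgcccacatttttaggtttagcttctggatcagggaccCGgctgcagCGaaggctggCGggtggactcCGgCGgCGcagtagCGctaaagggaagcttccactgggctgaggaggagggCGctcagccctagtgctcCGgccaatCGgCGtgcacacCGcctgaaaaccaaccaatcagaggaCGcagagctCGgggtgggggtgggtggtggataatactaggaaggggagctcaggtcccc

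**Figure D4:**
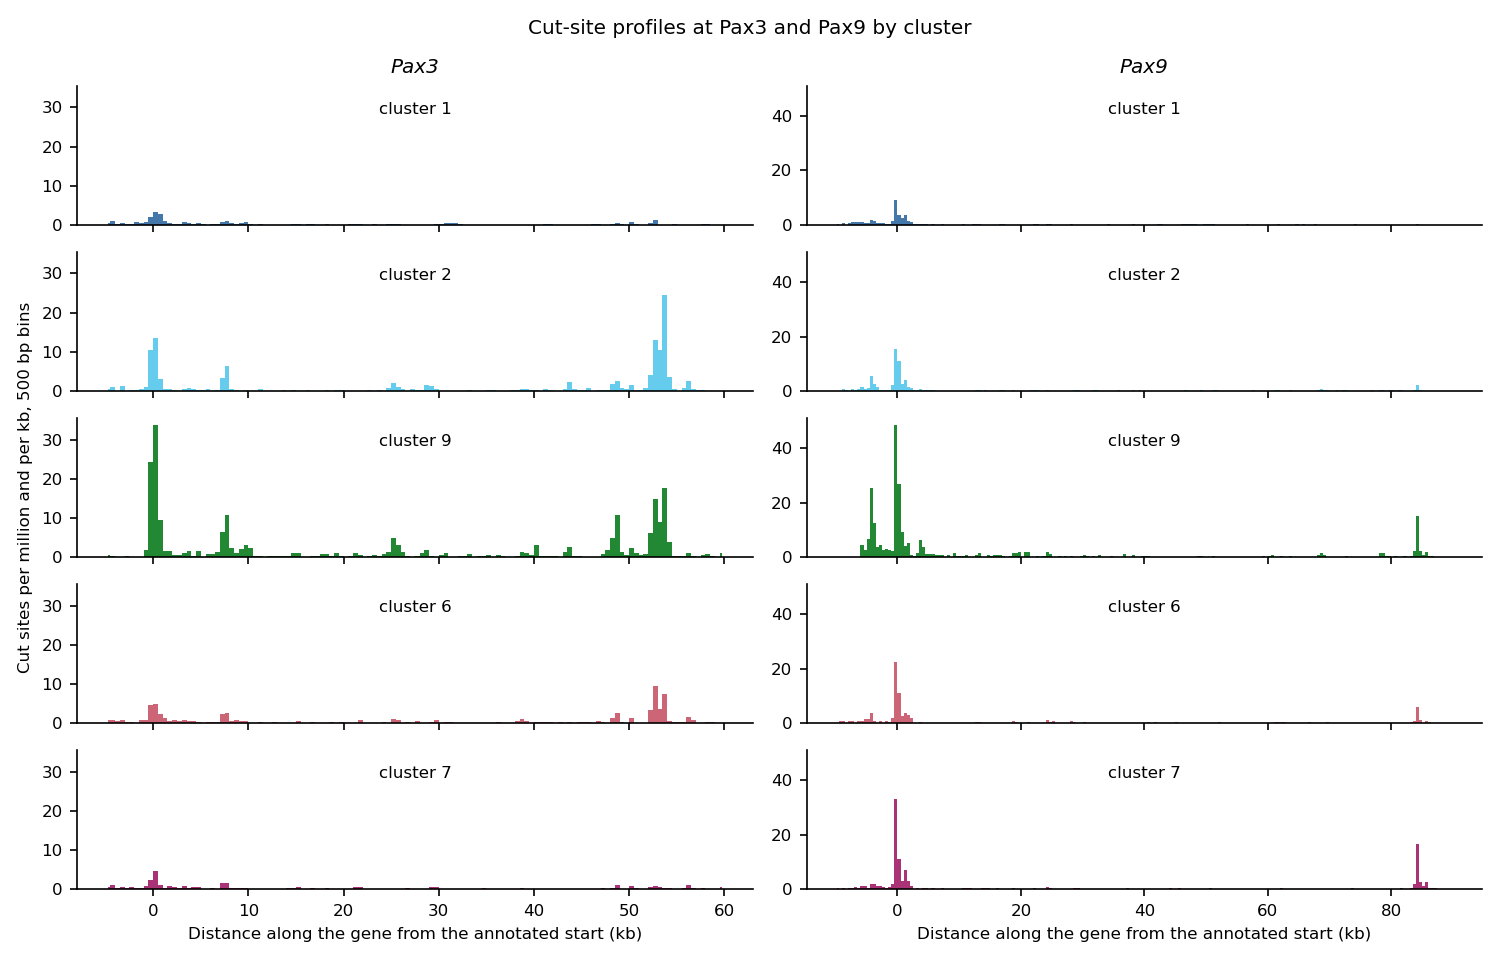
Cut-site density (CPM per kb, in 500 bp steps) along Pax3 and Pax9 by distance from the start of Pax3 and the other, downstream start of Pax9, in clusters 1, 2, 9, 6 and 7. In cluster 2 the highest step at Pax3 is in the intron, 53.75 kb from the start, whereas in clusters 1 and 7 it is at the start itself; at Pax9 the highest step is next to that start in all 5 clusters.

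Of 125 open regions assigned to the 10 genes, within 100 kb of a start, 62 had a mean of at least 1 CPM. In 28 of the 62 the level in cluster 9 was at least 2-fold that in cluster 1, against 18.7% of 88849 regions of that level genome-wide. These 28 included 8 of 8 at Pax3, 3 of 4 at Pax9, 2 of 2 at Foxc2, 3 of 4 at Dmrt2 and 4 of 6 at Irx5, but 2 of 7 at Irx3, 5 of 18 at Nr2f2, 1 of 5 at Nr2f1 and 0 of 7 at Foxc1. In 10 of the 62 cluster 1 was at least 2-fold above cluster 9: 4 at Nr2f2, 2 at Irx3, 2 at Foxc1, 1 at Irx5 and 1 at Dmrt2, against 23.5% of all regions. Cluster 2 was at least 2-fold above cluster 1 in 16 of the 62, against 17.2%, and 6 of these were at Pax3. Between the injured clusters, cluster 6 was at least 2-fold above cluster 7 in 7 of the 62, against 12.5% of all, and cluster 7 above cluster 6 in 6 of the 62, against 16.9%. The clusters were made from all open regions, these included, and the genes were picked as variable. A region could also pass the filter on mean level through U3 alone. The counts are therefore a description.

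The comparison the study was built for, injured against uninjured, called none of the 10 gene bodies. With edgeR's quasi-likelihood test and Benjamini-Hochberg adjustment at 0.05, 6.36% of 20330 gene bodies were called and 0 of the 10, with 0 at an unadjusted p under 0.05 and 0 by DESeq2, which called 14.8% of all. The share of all gene bodies rested on single libraries: edgeR called 0 without U1, U2 or I2, 1 without I1 and 15.1% without I3. Fitted log2 changes, injured minus uninjured, ran from -0.50 (SE 0.42, adjusted p = 0.456) for Pax3 to 0.23 (SE 0.28, adjusted p = 0.615) for Pax9, with a median of -0.23 against 0.01 over all gene bodies. For Foxc1 the CPM values of the groups did not overlap, but those scaled by edgeR's TMM factors did, and its log2 change was -0.15 (SE 0.095, adjusted p = 0.305). At the starts, 4.5% of 26451 windows were called and 0 of the 18, with 1 at an unadjusted p under 0.05 and 0 by DESeq2, which called 7.19% of all. That 1 was the other start of Pax9, which edgeR put at 0.75 in log2 (SE 0.29, adjusted p = 0.177).

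For Pax9 and Irx3 this outcome depended on the cells of U3 that entered. Without cluster 9, a choice made after the data were seen, edgeR called 2 of the 10 gene bodies, against 8.57% of all. Pax9 was then higher after injury by 0.71 in log2 (SE 0.12, adjusted p = 0.0171) and Irx3 by 0.63 (SE 0.15, adjusted p = 0.0352). At the starts, 2 of 18 windows were called against 5.24% of all, the other Pax9 start at 1.199 (SE 0.14, edgeR adjusted p = 0.00052) and the Irx3 start at 0.93 (SE 0.17, edgeR adjusted p = 0.00686). With U3 left out whole, the Pax9 body was called at 0.75 (SE 0.14, edgeR adjusted p = 0.0213) against 5.98% of all gene bodies, the Irx3 body was not (0.59, SE 0.17, edgeR adjusted p = 0.0720), and the same 2 starts were called against 4.62% of all. In clusters 7 and 10, which hold mostly injured cells, Pax9 stood at 38.0 and 36.8 CPM, and in cluster 1, mostly uninjured, at 18.7 CPM, while cluster 9 stood at 96.1 CPM. The difference was smaller between the other main groups, with cluster 6 at 0.775 times cluster 7 and cluster 2 at 1.51 times cluster 1. By library, cluster 6 was at 19.5, 33.9 and 35.0 CPM in I1 to I3, and cluster 2 at 20.1, 22.8 and 27.2 CPM in U1 to U3. Cluster 9 was thus above the injured clusters, and its cells lifted the uninjured mean. Cluster 9 was formed in part by Pax9 and Irx3 and is nearly all uninjured, so leaving it out selects on the values tested, and those p-values describe how far the outcome rests on these cells. Leaving out instead the matching group of 180 cells, which was made on chromosomes without the 10 genes, gave 0.70 for Pax9 (SE 0.12, edgeR adjusted p = 0.0168) and 0.62 for Irx3 (SE 0.15, edgeR adjusted p = 0.0354), with the same 2 gene bodies called against 8.64% of all. The same 2 starts were called against 5.23% of all. This group, too, was known to be high in both genes when it was left out.

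The promoter at the other Pax9 start is printed because its accessibility differed most between U1 or U2 and the injured libraries (RefSeq, GRCm38, plus strand, chr12:56695221-56695470, CG pairs in capitals). It holds 7 CG pairs and no match to the 6 motifs. Over all 32544 promoters of 300 bases in the RefSeq table, 7.79% hold the AP-1 letters and 16.7% the RUNX letters.
Pax9 promoter: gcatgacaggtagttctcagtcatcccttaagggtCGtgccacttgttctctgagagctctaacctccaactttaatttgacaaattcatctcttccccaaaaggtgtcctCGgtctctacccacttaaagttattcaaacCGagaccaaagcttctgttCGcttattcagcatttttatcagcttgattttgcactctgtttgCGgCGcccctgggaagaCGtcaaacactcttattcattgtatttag

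Of the open regions, 104 of the 125 passed the filter on low counts, and edgeR called 2 of them against 7.17% of 162697. DESeq2 called 6, against 11.1% of all regions. Both called by edgeR belong to Nr2f2 and lie between genes. The first, chr7:70304001-70306000, centred 54921 bases downstream of the nearest start, was at 2.29, 3.44 and 4.62 CPM before injury and 13.8, 13.1 and 8.71 CPM after it. The groups did not overlap, and the difference in log2 was 1.91 (SE 0.34, edgeR adjusted p = 0.0122). The other, chr7:70429001-70430000, centred 62765 bases upstream of the gene, was at 1.82, 1.19 and 3.14 CPM before and 6.04, 7.09 and 3.95 CPM after, which is 1.63 in log2 (SE 0.43, with edgeR an adjusted p = 0.0470). The Nr2f2 gene body itself was not called, at -0.18 (SE 0.12, edgeR adjusted p = 0.343). With no U2, or with no I2, neither region was called, and with no U1 or no I1 only the first was, each in a fit of 5 libraries. Without U2 or I2 edgeR called no gene body of any gene either, so these losses may not be particular to the regions.

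Both Nr2f2 regions hold 1 match to the AP-1 letters in the 300 bases with the most cut sites. AP-1 is the Fos and Jun dimer that is switched on early after many kinds of stress. The same letters are in 23.2% of 199196 open regions and in 22 of the 125 regions at these loci (17.6%), so the match is a description. The windows are printed as the stretches of these loci that differ between the groups, on the plus strand of GRCm38, chr7:70304501-70304800 and chr7:70429401-70429700, with AP-1 letters in capitals.
Nr2f2 region 1: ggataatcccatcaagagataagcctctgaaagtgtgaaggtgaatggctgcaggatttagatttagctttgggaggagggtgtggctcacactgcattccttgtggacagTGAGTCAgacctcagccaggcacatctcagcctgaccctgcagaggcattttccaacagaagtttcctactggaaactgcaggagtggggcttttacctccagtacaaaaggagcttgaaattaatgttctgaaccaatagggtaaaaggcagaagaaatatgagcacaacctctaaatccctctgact
Nr2f2 region 2: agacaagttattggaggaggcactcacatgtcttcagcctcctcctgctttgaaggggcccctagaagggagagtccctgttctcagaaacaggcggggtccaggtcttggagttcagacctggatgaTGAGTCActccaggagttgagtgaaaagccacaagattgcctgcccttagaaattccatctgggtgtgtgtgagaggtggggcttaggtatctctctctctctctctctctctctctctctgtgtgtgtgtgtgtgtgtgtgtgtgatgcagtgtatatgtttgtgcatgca

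A region centred 84861 bases downstream of the nearest Pax9 start, in an intron of Slc25a21, had the largest rise of these loci once cluster 9 was left out. At chr12:56779001-56782000 it was at 0.809, 0.305 and 4.43 CPM in U1 to U3 and 9.14, 7.77 and 5.55 CPM in I1 to I3. The groups did not overlap, and with all cells it was not called (log2 change 2.15, SE 0.73, edgeR adjusted p = 0.112). Without cluster 9 the log2 change was 3.73 (SE 0.45, edgeR adjusted p = 0.00388), one of 5 member regions called against 10.3% of all regions. Without U3 it was 3.98 (SE 0.53, edgeR adjusted p = 0.00896), one of 3 against 6.15%. By cluster it was at 0.334 CPM in cluster 1 and 1.33 in cluster 2, and at 12.4, 9.31 and 4.79 CPM in clusters 7, 10 and 6. Cluster 9, from an uninjured library, was at 11.4 CPM, between clusters 7 and 10 and above cluster 6. Its window with the most cut sites, chr12:56779751-56780050, holds 2 matches to the AP-1 letters and 1 to the RUNX letters, in capitals. The region is named here after its values were seen.
Pax9 distal region: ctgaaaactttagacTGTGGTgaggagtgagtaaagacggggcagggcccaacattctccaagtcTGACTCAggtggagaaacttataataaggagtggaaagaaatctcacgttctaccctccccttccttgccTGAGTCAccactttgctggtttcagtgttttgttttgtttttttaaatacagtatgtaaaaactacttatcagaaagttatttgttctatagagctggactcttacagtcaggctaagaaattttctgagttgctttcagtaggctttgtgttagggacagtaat

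Counted cell by cell, the shares of open cells depended on depth. With all fragments, Pax3 was open in 21.6%, 21.3% and 56.1% of the cells in U1 to U3 and in 26.5%, 36.2% and 37.3% in I1 to I3, and Tbx5, the locus with the lowest shares, in 6.17% to 11.1%. To set depth aside, each cell was thinned to 2000 fragments, and a cell was called open at a gene with at least 1 cut site over the gene body and upstream window. For Pax3, 3.30%, 5.29% and 13.4% of the cells in U1 to U3 were open, and 5.61%, 6.19% and 6.57% in I1 to I3. For Pax9 the shares were 3.74%, 4.61% and 7.63% against 5.98%, 8.10% and 4.83%. For Irx5 they were 6.17%, 7.31% and 10.5% against 8.67%, 8.33% and 7.91%. The groups overlapped for all 10 genes, while they did not for 24.9% of the 15810 genes open in at least 1% of cells on average, and no exact two-sided permutation p over the 6 samples was below 0.3 (0.1 is the smallest the design allows). By cluster, Pax3 was open in 27.0% of cells in cluster 9, 12.3% in cluster 2 and 11.05% in cluster 6, against 3.20% in cluster 1, 3.23% in cluster 7, 3.74% in cluster 10 and 0 of 106 sustentacular-like cells. It was open in 6.28% of cells in cluster 3, 6.43% of the neuron-like cells and 10.1% in cluster 8, of which 84.0% were called doublets. Irx3 was open in 12.97% of cells in cluster 9 and in 1.26% to 4.44% in clusters 1, 2, 3, 6, 7 and 10. These shares are over cells thinned to the same depth, since median depth ran from 3816 fragments in cluster 8 to 27013 in cluster 9.

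Co-opening of 2 loci in the same cell was described over the 45 pairs with a Mantel-Haenszel odds ratio, within strata of library and of depth (5 a library), on all fragments. It exceeded 1 for 42 of the 45 pairs, with a median of 1.31 and a range of 0.885 to 1.92. Pairs of other genes were not scored, so this count has no share over all pairs beside it and is not particular to these genes. Pax9 and Dmrt2 had the highest, 1.92, with 478 cells open at both and a ratio above 1 in 6 of 6 libraries. Pax3 and Dmrt2 followed at 1.76, Pax3 and Foxc2 at 1.74 and Pax9 and Irx3 at 1.74. For Pax9 and Irx3 the ratio was 3.03 in U3 and 1.09 to 1.69 in the other 5 libraries. The neighbours Irx3 and Irx5, on 1 chromosome, had 1.59. The 3 pairs below 1 were Foxc2 with Tbx5 at 0.885, Nr2f1 with Nr2f2 at 0.948 and Tbx5 with Nr2f2 at 0.977.

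Without cluster 9, 43 of the 45 pairs exceeded 1, the highest being Tbx5 and Nr2f1 at 1.76. The pairs that led with all cells were at 1.74 for Pax9 and Dmrt2, 1.49 for Pax9 and Irx3, 1.68 for Pax3 and Dmrt2 and 1.70 for Pax3 and Foxc2. With 2000 fragments drawn from each cell, only 27 of 44 pairs with a value exceeded 1, on few cells: Pax3 and Foxc2 had 2.04 on 11 cells and Pax9 and Dmrt2 1.47 on 9. Depth within a stratum still varies, and its part in the 42 of 45 was not tested. With cluster added to the strata, 42 of the 45 pairs still exceeded 1, with a median of 1.24 and a highest value of 1.79.

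**Figure D5:**
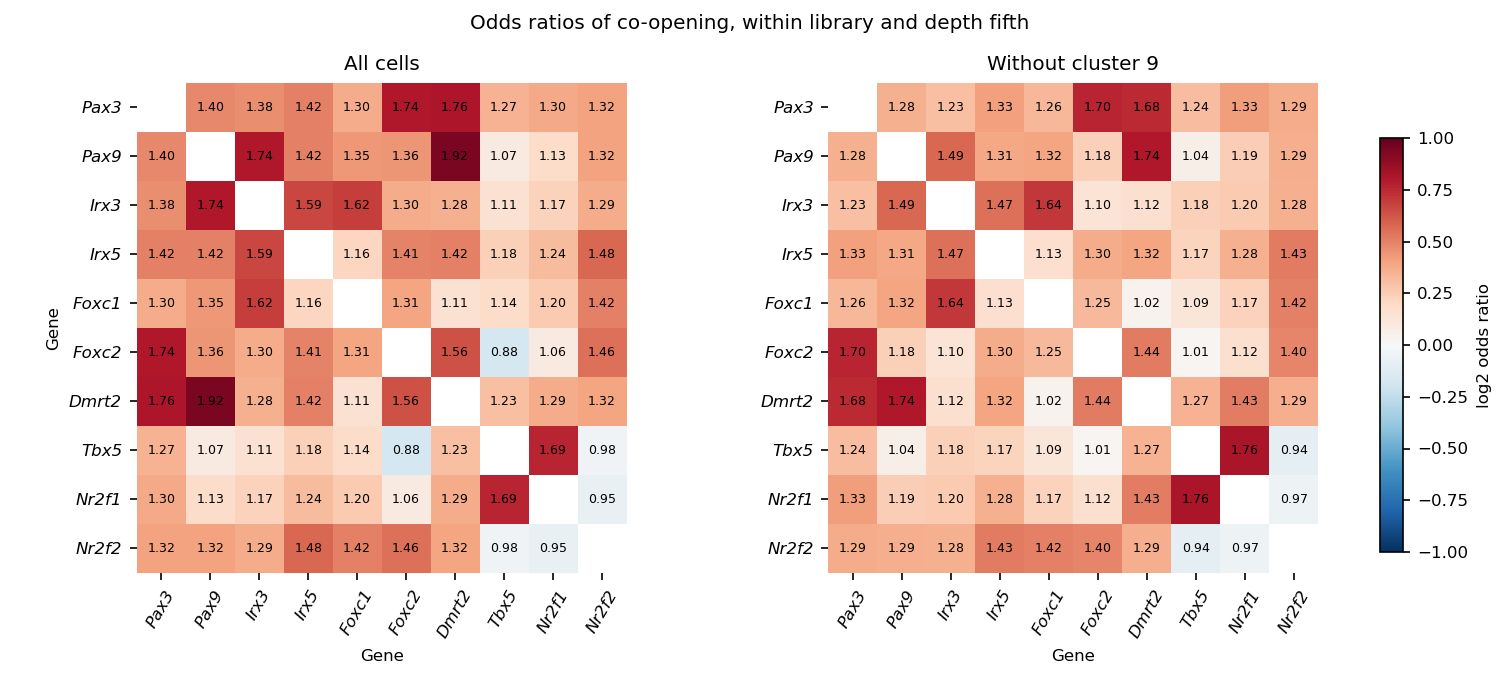
Mantel-Haenszel odds ratios of co-opening, on a log2 scale, for the 45 pairs of the 10 genes. Pax9 with Dmrt2 (1.92), Pax3 with Dmrt2 (1.76) and Pax3 with Foxc2 (1.74) are the highest, and Foxc2 with Tbx5 (0.885) is the lowest.

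Likeness across cells was weak for every gene. It was measured as the mean over 6 libraries of the Pearson correlation across cells, between log2 of 1 plus the cut sites per 10000, with protein-coding genes over 1 Mb away or on another chromosome. The highest for Pax3 were Plcb1 (0.146), Mipol1 and S100a6. Pax9 had Emp1 (0.136), Bach2 and Mbp, Irx3 had Sgms2 (0.147), Ralgds and Cdc42bpb, and Irx5 had Fto (0.180), Gse1 and Gm20388, all 3 on chromosome 8. Foxc1 had Lmna (0.174), Anxa2 and Ece1, Foxc2 had Ywhaz (0.136), Lgals3 and Fam107b, and Dmrt2 had Cadps2 (0.161), Ebf2 and Arhgef38. Tbx5 had C7 (0.124), Vmn2r19 and Pla2g12b, Nr2f1 had Thrsp (0.108), Gje1 and Olfr20, and Nr2f2 had Nectin1 (0.137), Egr1 and Tet3. The points are cells that share a library and its depth, and correlations of this size in sparse counts are no finding.

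The relatives of these genes were counted from a list of 44 Pax, Irx, Fox, Dmrt, Tbx and NR2 genes that holds none of the 10. With edgeR's test on gene bodies, 2 were called higher and 2 lower after injury, 4 of 44 against 6.36% of all gene bodies, with a median log2 change of 0.05 against 0.01 over all. Pax8, a factor of thyroid and kidney, went from 8.36, 8.93 and 10.4 CPM to 29.3, 28.6 and 16.6 CPM, which is 1.52 in log2 (SE 0.23, with edgeR an adjusted p = 0.0210). Pax5, a factor of B cells, was higher by 0.43 (SE 0.099, edgeR adjusted p = 0.0419). Foxf1 was lower by a log2 change of -0.73 (edgeR adjusted p = 0.0431) and Dmrt1 by -0.53 (edgeR adjusted p = 0.0286). At the starts, 1 of 75 windows was called, against 4.5% of all, the fourth of Pax5, at 1.91 (edgeR adjusted p = 0.0306). Across clusters, 6 of the 44 were at least 2-fold higher in cluster 9 than in cluster 1, against 5.35% of all genes compared, among them Pax7 at 155 against 74.9 CPM, Dmrta1 at 39.8 against 15.1 and Tbx19 at 19.9 against 6.18. Irx6, which lies beside Irx3 and Irx5 in the genome, was at 9.42 against 3.39 CPM. Tbx1 was at least 2-fold higher in cluster 2 than in cluster 1, at 37.4 against 17.1 CPM, and in cluster 6 than in cluster 7, at 35.1 against 14.7 CPM. In cluster 9 it was at 24.3 CPM.

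Of 6 genes of the dorsal or ventral zones, Nqo1, Acsm4, Ncam2, Nfia, Nfib and Nfix, 0 gene bodies were called with edgeR (6.36% of all), 0 at an unadjusted p under 0.05 and 0 by DESeq2 (14.8% of all). At their starts 2 of 11 windows were lower after injury, against 4.5% of all windows called, both of the 1 gene Nfix, a nuclear factor I gene of the ventral zone, at log2 changes of -0.84 (edgeR adjusted p = 0.0261) and -0.85 (edgeR adjusted p = 0.00816). Both Nfix starts were lowest before injury in U3, at 9.98 and 15.9 CPM, against 13.7 to 15.3 and 20.9 to 23.2 CPM in U1 and U2. Ncam2, a cell adhesion gene of the ventral zone, was at 74.4 CPM in cluster 9 and 68.7 in cluster 1. Nqo1 was the zonal gene that differed most between these clusters, and its part in the pattern of the 10 genes was not tested.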

How the data were processed

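The deposited fragments are counts of read pairs per unique fragment and barcode, and the submitters' processing notes name Cell Ranger 2.0.0 and the build mm10 (GRCm38). The peak-by-cell counts of the deposited matrices were not used here. Barcodes with at least 2000 fragments were kept, both fragment ends were counted as cut sites, and GENCODE release 21 gave genes and starts, with starts under 500 bp apart merged. Open regions were runs of 500 bp tiles at 5 times or more the median tile's level, called without regard to group. Cells were clustered on these regions (scanpy 1.11.5, scikit-learn 1.9.0, igraph 0.11.9), and doublets were called from positions covered more than expected for 2 chromosome copies and kept in the main analysis (406 cells, 9.07%). Counts were summed per library and fitted over all genes, starts or regions with edgeR 4.0.16 in R 4.3.3, using its robust quasi-likelihood test, TMM factors and its own filter for low counts, with DESeq2 1.42.0 as an alternative, and p-values were adjusted over all features tested. Sequences are from the RefSeq promoter table, which matched 6 of the 10 genes, and the GRCm38 genome.

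On simulated counts with known changes, the gene-body test recovered 66 of 100 genes changed by 1 in log2 and 80 of 100 changed by 2, among 20330 genes. For starts it recovered 60 and 87 of 100, among 26451 windows. For regions it recovered 1 and 21 of 100, among 162697. In each simulation only 100 features, drawn at random, were changed by each amount, while 11662 regions were called in the data. The adjusted threshold depends on how many features change, so these shares are not the power of the fits above. The spread was also above the median of all gene bodies for 8 of the 10 genes. A gene, start or region that was not called may still differ. Depth per library limits precision, and intervals cover counting error only, with the 2 ends of a fragment taken as independent. The labels call the samples biological replicates, and no shared litter or day is given in the sources used here. Same-numbered libraries deviated together from their group means with correlations of 0.08, 0.33 and 0.31 over 15980 genes. Those of different-numbered libraries ran from -0.39 to 0.20. The main fits did not take the numbers as pairs, since the labels name none, but these values do not set a pairing aside. Fits with the replicate number as a block are given below.

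The 10 genes and the gene lists were chosen with earlier results of these data known. The rule for naming others was relatives and zonal genes called in a fit, at most 3 called regions in each direction, and the 3 genes most like each member. The regions had to have a mean of at least 5 CPM and no overlap. The lower-level Nr2f2 region and the distal Pax9 region were added after their values were seen. Outside this rule, and not called, Pax7, Dmrta1, Tbx19, Irx6, Tbx1 and the zonal genes other than Nfix were named. The regions at Pax3, Dmrt2 and Foxc2, also not called, were given for their levels by cluster. Alternatives covered scaling, filters, cells, windows and libraries. One basal cell marker and its motif are not reported here.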

Additional observations from a re-analysis of the deposited data

How the results depend on the processing

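Of 480 alternative values, 405 were labelled the same as the main value, by a rule that differed with the kind of value. A log2 change had to keep its direction and side of the threshold. A count had to lie within a fixed fold of the main count, and an odds ratio within the spread of the libraries. The number of gene bodies called among the 10 (0) was 4 with TMM factors from 10 kb bins (37.1% of all gene bodies were called), 2 without cluster 9 or without its matching group from chromosomes that carry none of the 10 genes, and 0 to 1 with a library left out. The number of starts called (0 of 18) was 2 with each of these first 3 changes (48.5% of all starts were called under the first) and 0 to 2 with a library left out. The number of regions called (2) was 6 with DESeq2 (11.1% of all), 5 without cluster 9 (10.3%) or its matching group (10.2%), and 0 to 7 with a library left out. Without U3 it was 3, against 6.15% of all regions. For the other left-out libraries the share of all regions is not given here, so that range is not a result about the members. TMM factors from 10 kb bins moved the median log2 change of all gene bodies to -0.34, of all starts to -0.50 and of all regions to -0.33, and the gene bodies and starts called under them were all lower after injury. Under them the log2 change was -0.13 for Pax9, -0.26 for Irx3, -0.26 for Nr2f1 and -0.25 at the Irx3 start.

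Single libraries turned the sign of small changes. With a library left out in turn, the log2 change of the gene body ran from -0.80 to 0.39 for Pax3, -0.025 to 0.75 for Pax9, -0.090 to 0.59 for Irx3, -0.55 to 0.28 for Foxc2, -0.78 to 0.26 for Dmrt2, -0.47 to 0.01 (0.0083) for Tbx5 and -0.030 to 0.24 for Nr2f1, and the positive ends for Pax3, Pax9, Irx3, Foxc2, Dmrt2 and Tbx5 were without U3. Irx3 was at -0.085 in HBC-like cells only, and Foxc2 at 0.01 (0.0084) without cluster 9. The number of genes whose share of open cells did not overlap between groups (0) was 1 with 5000 fragments drawn, 3 without cluster 9 and 0 to 5 with a library left out, against 29.5%, 25.6% and 32.5% to 38.5% of all genes. Co-opening exceeded 1 for 27 pairs with 2000 fragments drawn. The number of genes above the median spread (8) was 5 to 8 with a library left out, the lowest without U3.

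Of the relatives, 4 were called, against 13 of 44 with TMM factors from 10 kb bins (37.1% of all), 2 with barcodes of at least 20% of cut sites in open regions (3.97%), 2 with copied barcodes also left out (4.18%), 2 with the gene body alone (3.84%), and 0 to 7 with a library left out. In those last fits the called share of all gene bodies was 15.1% without I3 and 5.98% without U3, and 0 genes were called without U1, U2 or I2 and 1 without I1, so counts of 0 there say nothing of the members. Of the 6 zonal genes 4 were called with TMM factors from 10 kb bins, with the same share of all.

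With the replicate block, 0 gene bodies, 0 starts and 3 regions were called, against 11.7%, 11.6% and 9.01% of all, and the Nr2f2 region at 70429001 was no longer among them (log2 change 1.63, edgeR adjusted p = 0.0611). Over all genes the block took the called gene bodies from 1293 to 2372. I1 deviated more with U2 (correlation 0.20) than with U1 (0.08), while U2 with I2 (0.33) and U3 with I3 (0.31) had the highest correlations. The settings without cluster 9, without its matching group and without copied barcodes were added after the data were seen.

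Depth limits what can be said of single cells, since at 2000 fragments a cell no locus was open in more than 13.4% of the cells of a library, and of regions, whose counts are low.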
